A study of Mus musculus with 4 samples.

Results

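The cells described here are 345 Ghrl-rich cells among 38732 cells of the mouse gastric corpus epithelium. A barcode counted as a cell from 500 unique molecular identifiers upward (UMIs, each standing for 1 captured RNA molecule), given 200 or more genes and no more than 50% of UMIs from mitochondrial genes. A cell was counted as Ghrl-rich when Ghrl, the gene of the hormone ghrelin, gave at least 100 of every 10000 of its UMIs and Sst, the gene of somatostatin, fewer than 50. Ghrl and Sst levels therefore chose the cells and are given below as descriptions only.

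Ghrelin is made in endocrine cells of the stomach wall as a longer precursor. Prohormone convertases cut the precursor, and the enzyme encoded by Mboat4 attaches a fatty acid to the peptide, without which it does not activate its receptor. Enterochromaffin-like cells are another endocrine cell of the corpus. They make histamine with the enzyme encoded by Hdc and load it into granules with the transporter encoded by Slc18a2. Chromogranins, among them Chga and Chgb, are granule proteins shared by most endocrine cells.

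The study took C57BL6/J wild-type mice of 6 to 7 weeks. One group was untreated (PBS), and the other groups received a single oral dose of 350 mg/kg L635, a compound toxic to the acid-secreting parietal cells. They were sampled 1 day later, 3 days later with AREG (amphiregulin, a ligand of the EGF receptor), and 3 days later without it. Each group was 1 library, so conditions have no replicate and no test. How AREG was dosed and how many mice stand behind a library are not stated by the labels.

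The untreated library held 256 Ghrl-rich cells of 13897 cells, or 1.84% (exact Clopper-Pearson 95% interval 1.63 to 2.08). The day 1 library held 7 of 3926, or 0.178% (0.0717 to 0.367). The day 3 library with AREG held 61 of 12923, or 0.472% (0.361 to 0.606), and the day 3 library 21 of 7986, or 0.263% (0.163 to 0.402). The untreated interval lay above those of the other 3 libraries. The intervals of the day 3 libraries with and without AREG overlapped, as did those of day 1 and day 3. These intervals cover counting error alone. Fewer ghrelin cells and less Ghrl RNA per cell cannot be told apart, because the rule reads the Ghrl level of each cell.

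**Figure D1:**
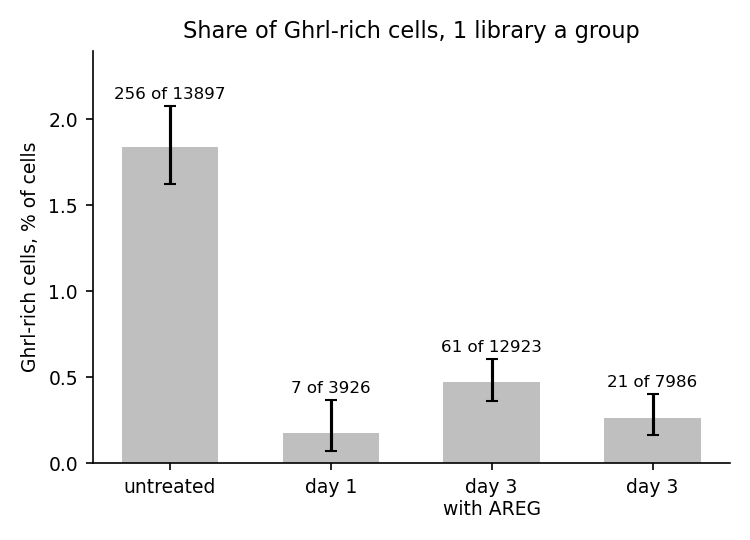
Percent of cells that were Ghrl-rich in each library (bars, from 0), with exact 95% binomial intervals and the cell counts above them. The untreated library stands at 1.84% and the other 3 between 0.178% and 0.472%.

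Depth differed between the libraries. Median UMIs per Ghrl-rich cell were 1268.5 in the untreated library, 2980 on day 1, 2617 at day 3 with AREG and 3672 at day 3. Other cells had medians of 2551, 2723, 2685.5 and 3013 in the same order. Single cells weighed heavily in the small groups: the deepest cell held 9.13% of the Ghrl-rich cells' UMIs in the untreated library, 38.5% on day 1, 11.03% at day 3 with AREG and 43.4% at day 3. No barcode of a Ghrl-rich cell occurred as a cell of another library, and 8 barcodes were shared among all cells of all library pairs.

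Free RNA carried Ghrl as well. Barcodes under 50 UMIs, which hold mostly free RNA, had 4702 Ghrl CPM (counts per 1000000 UMIs) in the untreated library, 664 on day 1, 2096 at day 3 with AREG and 1453 at day 3. Cells that were not Ghrl-rich had 166, 20.4, 97.6 and 61.7 Ghrl CPM in the same order. The limit of 1% stands at 10000 CPM. Just inside it lay an untreated cell of 500 UMIs at exactly 1% Ghrl, with no Chga and no Hdc UMI. Just outside it lay an untreated cell of 1208 UMIs at 0.993%, with 132 Chga and 11 Hdc UMIs. Cells of 0.5 to 1% Ghrl numbered 65 in the untreated library, 4 on day 1, 27 at day 3 with AREG and 9 at day 3.

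Ghrl took from 1.0% to 82.1% of a Ghrl-rich cell's UMIs in the untreated library, with a median of 6.35%. The medians were 27.4% at day 1, 3.98% at day 3 with AREG and 8.07% at day 3. A Chga UMI was found in 92.2% of Ghrl-rich cells against 10.1% of other cells in the untreated library, in 100% against 5.10% on day 1, in 91.8% against 7.49% at day 3 with AREG and in 85.7% against 7.17% at day 3. In all, 317 of the 345 cells had a Chga UMI and 28 had none.

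The label of a ghrelin endocrine cell fitted some of these cells better than others. Of the 345 cells, 73 had 40% or more of their UMIs in Ghrl, 21 had 20 to 40%, 91 had 5 to 20% and 160 had 1 to 5%. An Hdc or Slc18a2 UMI was found in 15.1% of the cells of 40% or more, against 66.7% of those of 20 to 40%, 89.0% of those of 5 to 20% and 83.8% of those of 1 to 5%. The histamine genes thus marked 240 of the 345 cells. The median Chga level was 98.0 per 10000 non-Ghrl UMIs in the cells of 40% or more, and 696, 897 and 867 in the other bands in the same order. The bands were set after their values were seen, so no test was made between them, and the cells are named here by their Ghrl share.

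**Figure D2:**
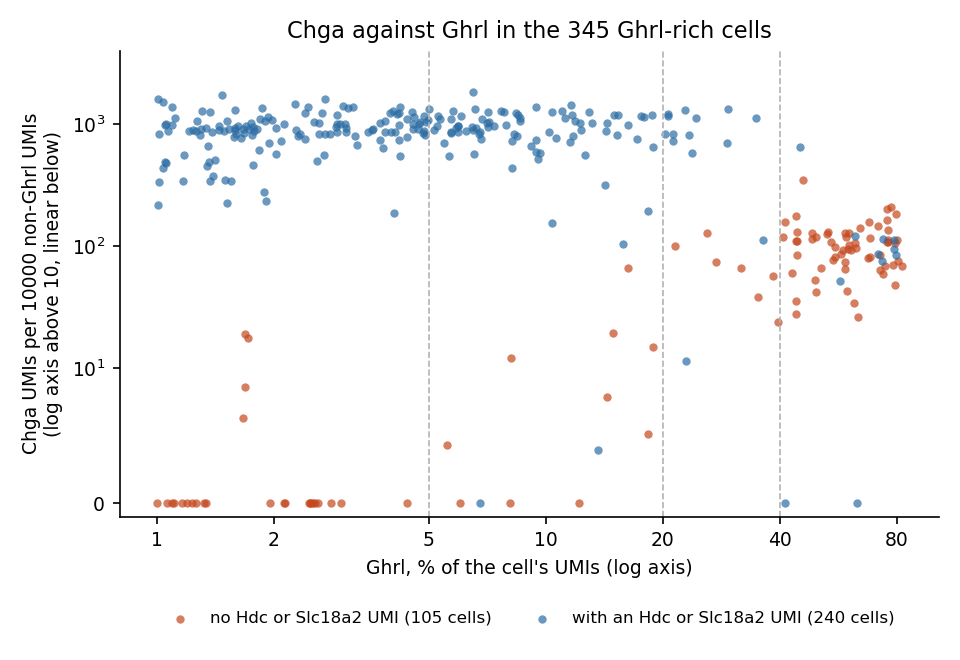
Each point is 1 of the 345 Ghrl-rich cells, with its Ghrl share of UMIs across (log axis) and its Chga UMIs per 10000 non-Ghrl UMIs up (log axis above 10, linear below); dashed lines mark 5, 20 and 40%. Most cells under 20% carry an Hdc or Slc18a2 UMI and lie near 900 on the vertical axis, while most cells of 40% or more carry neither and lie near 100.

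Levels in the next 2 paragraphs are CPM without Ghrl (counts per 1000000 non-Ghrl UMIs), summed over the cells of a band, since Ghrl itself fills much of the richest cells. In the cells of 40% or more, Acsl1, which activates long-chain fatty acids by joining them to coenzyme A, stood at 2979, against 81.4 in cells under 20%. By library, Acsl1 in the cells of 40% or more was at 3114 in the untreated library, 1945 on day 1, 3114 at day 3 with AREG and 3649 at day 3, so that it was high in all 4. Ceacam10, a cell adhesion family member, stood at 5652 against 192, and Rbp4, a retinol carrier, at 2593 against 111. Scg2, a granin, was at 1356 against 17.9, and Scgn, a calcium-binding protein of endocrine cells, at 1197 against 24.4. Pcsk1n, an inhibitor of prohormone convertase 1, was at 931 against 29.3. The adaptor gene Irs4 was at 386 against 4.89. Each of these 7 genes was higher in the richer cells in all 4 libraries. The endocrine transcription factors Nkx2-2 and Isl1 were at 332 against 1.63 and at 359 against 27.7. Mboat4 was at 532 in the cells of 40% or more (exact Poisson 95% interval 380 to 724, 40 UMIs in 22 of the 73 cells), against 191 in the cells of 5 to 20% and 231 in those of 1 to 5%. That order rested on the untreated and day 1 libraries, with 671 and 567 in the cells of 40% or more. With AREG, Mboat4 was at 152 (2 UMIs) in the cells of 40% or more, against 478 in those of 5 to 20% and 227 in those of 1 to 5%, and at day 3 it was at 378 (3 UMIs), against 57.1 and 402.

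Other genes ran the opposite way. Hdc stood at 106 in the cells of 40% or more, against 2760 in those of 5 to 20% and 5302 in those of 1 to 5%. Slc18a2 stood at 133 against 637 and 1301 in the same bands. Gc, the vitamin D binding protein, was at 39.9 against 1905 and 3175, and Vtn, an adhesive matrix protein, at 66.5 against 1563 and 2149. Ahsg and Ccn3 had no UMI in the 73 richest cells, and stood at 1304 and 937 in the cells of 1 to 5%. Fst, which binds activins, had no UMI in the richest cells and 345 CPM in cells under 20%, at least 8.65-fold lower against a floor of 3 counts over the band. Ptf1a, a transcription factor, had none against 147, at least 3.67-fold lower on the same floor. Over the 3715 genes compared, 618 stood at least 2-fold higher in the cells of 40% or more and 236 at least 2-fold lower, with a median log2 ratio of 0.28.

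**Figure D3:**
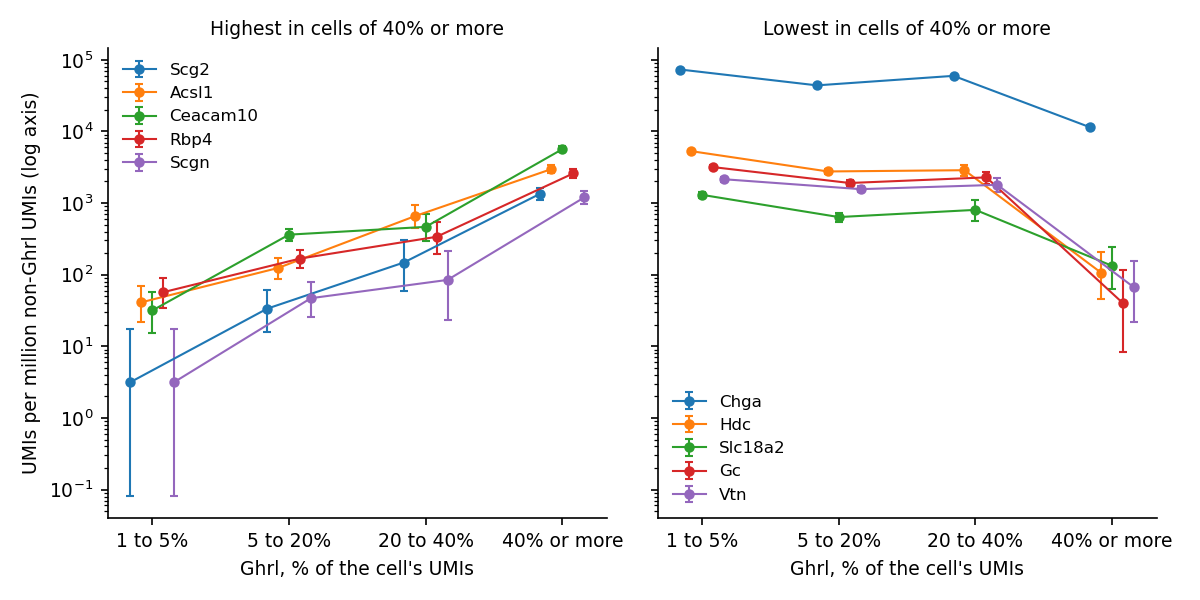
Levels of 10 genes (CPM without Ghrl, log axis, exact Poisson 95% intervals) in cells grouped by Ghrl share, pooled over 4 libraries. Scg2, Acsl1, Ceacam10, Rbp4 and Scgn are highest in the cells of 40% or more, and Chga, Hdc, Slc18a2, Gc and Vtn are lowest there.

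Cells picked by Hdc, with no condition on Ghrl, show the overlap from the other side. They had at least 3 Hdc UMIs, at least 20 of every 10000 UMIs in Hdc and fewer than 50 in Sst. The untreated library held 210 of them, day 1 held 17, day 3 with AREG 76 and day 3 held 31. At least 1% Ghrl was found in 65.2% of them in the untreated library (58.4 to 71.7), 17.6% at day 1 (3.80 to 43.4), 43.4% at day 3 with AREG (32.1 to 55.3) and 32.3% at day 3 (16.7 to 51.4). None reached 40%. Among cells with neither Hdc nor Chga, 0.156% reached 1% Ghrl in the untreated library, 0 of 3697 cells on day 1, which allows a share of up to 0.0811%, 0.0422% at day 3 with AREG and 0.0273% at day 3. Gkn2, a secreted protein abundant in surface mucous cells, served to compare with free RNA. The Hdc cells had 10.4, 3.61, 2.29 and 9.69 Ghrl UMIs per Gkn2 UMI in the order untreated, day 1, day 3 with AREG and day 3, against 0.0961, 0.0199, 0.0586 and 0.0300 in barcodes under 50 UMIs.

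Against all other cells, the Ghrl-rich cells were tested on UMI sums per library with edgeR's quasi-likelihood test, library as a block and Benjamini-Hochberg adjustment. Of 14836 genes, 1158 were higher, a background of 7.81%, and 2167 were lower, 14.6%. The median log2 fold change over all genes was -0.38. Without the untreated library 668 were higher and 1112 lower, and without the AREG library 795 higher and 1216 lower. Because most Ghrl-rich cells carried Hdc, these calls describe the mixture of bands above. Levels below are CPM over all UMIs, Ghrl included.

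Of 10 enzymes of ghrelin maturation and their partners, all tested, 7 rose and 2 fell, with a median log2 fold change of 4.50. Mboat4 had 201 CPM in untreated Ghrl-rich cells against 1.03 in other cells, 210 against 0.381 at day 1, 194 against 1.64 at day 3 with AREG and 130 against 1.79 at day 3 (log2 fold change 6.99, adjusted p = 1.7e-101 by edgeR). It was higher in Ghrl-rich cells in all 4 libraries. Pcsk1, a convertase that cuts prohormones, rose by 7.02 on the log2 scale, Scg5, the chaperone of the convertase PC2, by 7.14 and Cpe, which trims the cut ends, by 6.65. Cpd and Lypla1 fell, with log2 fold changes of -1.47 and -1.44.

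Granule genes rose most widely: 17 of 21 tested were higher and 0 lower, with a median of 4.10. Scg2 had the highest log2 fold change of the genes named by rule, 8.27, with 168, 325, 37.8 and 38.0 CPM in Ghrl-rich cells of the untreated, day 1, AREG and day 3 libraries against 0.376, 0.102, 0.329 and 0.286 in other cells. Chga rose by 6.96 and Chgb by 6.55. Resp18, a granule protein of endocrine cells, rose by 7.41. Of 26 genes of vesicle docking and fusion, 14 rose and 2 fell, with Snap25 at 5.96 and Stx1a at 5.59. Among 27 ion channel genes 13 rose and 2 fell, with Kcnj11 and Abcc8, subunits of the ATP-sensitive potassium channel, at 5.12 and 4.21.

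Nutrient sensors and receptors rose in 9 of 25 tested and fell in 2. Ffar2, a receptor for short-chain fatty acids, averaged 147 CPM in pooled Ghrl-rich cells and 2.29 in other cells. Ffar4, a receptor for long-chain fatty acids, had 37.1 against 0.989. Adrb1, the receptor by which noradrenaline is known to act on ghrelin cells, had 2 UMIs in all 345 cells, in sequencing from the RNA's 3′ end at this depth. Endocrine transcription factors rose in 9 of 19 tested, among them Neurod1 (6.80), Nkx2-2 (6.69), Insm1 (6.33) and Rfx6 (5.66), and Hes1, a repressor of endocrine fate, fell by 2.34.

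Fatty acid enzymes went mostly the other way, with 3 of 30 higher, 23 lower and a median of -1.44. The 3 that rose were Acsl1 (2.68), Scd1 (2.27) and Acsl4 (1.44), and Acsl1 had 314 CPM against 51.8. Injury genes fell in 16 of 21, with a median of -2.35, and 2 rose, Krt7 and Nupr1. Anxa2 fell by 4.39 and Sprr1a by 5.21. Cell cycle genes fell in 12 of 21 and rose in 0. The genes lowest by rule also included the mucous cell genes Tff1, Tff2 and Gkn2. Gkn2 had 8295 CPM in untreated Ghrl-rich cells against 61584 in other cells, and 1377 against 52215 at day 3. Over whole marker lists, 5 pit cell genes summed to 20355 CPM in Ghrl-rich cells against 169223 in other cells, and 6 chief cell genes to 60536 against 56404. By library the chief cell sum in Ghrl-rich cells was 45926 in untreated cells, 478 on day 1, 56220 with AREG and 123918 at day 3. Of 5 immune and 5 fibroblast markers, 4 each were at 0 in the Ghrl-rich cells. The immune markers summed to 12.4 CPM against 4.69 in other cells, and the fibroblast markers to 1.03 against 2.56. The part of these markers in the results was not tested.

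Somatostatin cells, with at least 1% Sst and under 0.5% Ghrl, numbered 21 in the untreated library, 2 on day 1, 9 at day 3 with AREG and 6 at day 3. In the 3 libraries other than day 1, 14 of 1060 genes were higher in Ghrl-rich cells, 1.32%, and 11 lower, 1.04%, counts that include Ghrl and Sst themselves. Vtn rose by 4.28, Slc18a2 by 3.56, Ttr, a thyroid hormone carrier, by 2.73 and Acsl1 by 2.61. Pcsk2, a convertase of many peptide hormones, fell by 6.43 (adjusted p = 0.0012 by edgeR). It had 7.66 CPM in Ghrl-rich cells of the untreated library, 14.2 with AREG and 21.7 at day 3, against 643, 1790 and 387 in somatostatin cells. The immediate early genes Fosb, Atf3 and Btg2 fell too, 3 of 12 tested. Of 13 granule genes tested, 1 was called higher and 1 lower. The lower one was Scgn, with a log2 fold change of -2.34 (adjusted p = 0.028 by edgeR). Scg2 and Pcsk1n were not called, at -1.60 and -2.55, and their CPM was higher in somatostatin cells in all 3 libraries. Scg2 had 168, 37.8 and 38.0 CPM in Ghrl-rich cells of the untreated, AREG and day 3 libraries, against 179, 367 and 43.0. Amy2a3 and Amy2a5, which are near-identical copies, rose but could share reads. Without the untreated library 0 genes were called in either direction, without day 3 there were 6 higher and 16 lower, and without the AREG library 44 higher and 26 lower; 123 genes had an unadjusted p under 0.05 over the 3 libraries.

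Against 114 Hdc-rich cells with little Ghrl, 14 of 907 genes were higher in Ghrl-rich cells, 1.54%, and 1 was lower, 0.110%. The count of higher genes includes Ghrl, which chose both classes. The Hdc-rich cells met the Hdc and Sst limits given above and had fewer than 50 of every 10000 UMIs in Ghrl. Acsl1 had 293, 650, 312 and 282 CPM in Ghrl-rich cells of the untreated, day 1, AREG and day 3 libraries, against 13.0, 0, 24.6 and 12.7 in Hdc-rich cells, and Ceacam10 had 704, 459, 425 and 450 against 39.1, 110, 24.6 and 12.7 (log2 fold changes 5.10 and 4.54, both with adjusted p = 6.3e-05 by edgeR). Rbp4 rose by 1.97 and was higher in all 4 libraries. Of 11 granule genes tested, 0 were called in either direction, with a median log2 fold change of -0.35. Of 4 vesicle docking and fusion genes, 0 were called, with a median of -0.44. Chga had 41071 CPM over all UMIs in pooled Ghrl-rich cells against 83031 in Hdc-rich cells, and was lower in all 4 libraries. Of 6 ghrelin maturation enzymes tested, 1 was called higher and 0 lower, with a median of -0.02. It was Furin, a convertase, which rose by 1.48 and was higher in 3 libraries. At day 1 Furin had 38.2 CPM in Ghrl-rich cells against 73.3 in Hdc-rich cells. Pcsk1, Cpe, Pam and Scg5 were not called, and their CPM over all UMIs was lower in Ghrl-rich cells in all 4 libraries. Those totals include Ghrl itself, at 241331 CPM in pooled Ghrl-rich cells and 1625 in Hdc-rich cells. After normalization the log2 fold change of Cpe was 0.16, opposite in sign to its CPM. Those of Pcsk1, Pam and Scg5 were -0.26, -0.42 and -0.20. Mboat4 did not pass the test (log2 fold change 0.33 after normalization, adjusted p = 0.65 by edgeR), and its CPM over all UMIs, at 186 in pooled Ghrl-rich cells and 231 in Hdc-rich cells, ran opposite to the sign of that fold change and was lower in Ghrl-rich cells in all 4 libraries. Pla2g1b, a secreted digestive phospholipase, was also higher, by 3.36, and Cel, a lipase, was lower, by 1.16. The deepest day 3 cell, of 79953 UMIs, held 7978 of the 9065 Pla2g1b UMIs of the Ghrl-rich cells at day 3. The deepest untreated cell, of 47678 UMIs, held 7606 of the 12047 in the untreated library. These cells also held 19575 and 11005 UMIs of Clps, a cofactor of lipase. No doublet caller was run, and the part of such cells in these calls was not tested. Without the day 3 library 4 genes were called higher and 0 lower, and without the AREG library 15 higher and 5 lower.

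The conditions were compared as ratios of library sums, with 20 CPM added to each, and a gene counted past the fold at a log2 ratio of at least 1. Over the 89 cells from the 3 L635 libraries against the 256 untreated cells, 117 of 3988 genes were higher, 2.93%, and 75 lower, 1.88%. Without the deepest cell of each library 240 were higher and 58 lower. Of the granin and granule list, 5 of 19 measured were higher and 2 lower, with a median of 0.07 beside -0.01 for all genes. Vgf, a granin, had 457 CPM after L635 against 44.0 in untreated cells, and Ptprn, a granule membrane protein, 343 against 63.2. Chgb had 7353 against 2546. Of its 3298 UMIs after L635, 2285 came from the AREG library, and day 1 stood at 554 CPM, below the untreated level. Hmgcs1, an enzyme of sterol synthesis, had 201 against 57.4. Of its 90 UMIs after L635, 71 came from the AREG library, and day 3 without AREG stood at 48.8, below the untreated level. Pnliprp1, a lipase-related protein, had 1846 against 8938, and Cel 453 against 1686.

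Cells of 40% or more Ghrl were 18 of the 89 Ghrl-rich cells after L635 (20.2%) and 55 of the 256 untreated ones (21.5%). By library they were 3 of 7 at day 1, 12 of 61 with AREG and 3 of 21 at day 3. They held 12337 non-Ghrl UMIs at day 1, against 6969 in the cells of 1 to 5%. In the untreated library these were 41749 against 150859. Ratios between library sums therefore compare different mixes of bands, and the part of that mix was not tested. Of all cells, those of 40% or more were 0.396% of untreated cells (0.298 to 0.515), 0.0764% at day 1 (0.0158 to 0.223), 0.0929% at day 3 with AREG (0.0480 to 0.162) and 0.0376% at day 3 (0.00775 to 0.110). Cells of 1 to 20% were 1.35% (1.17 to 1.56), 0.0764% (0.0158 to 0.223), 0.348% (0.254 to 0.466) and 0.188% (0.105 to 0.310) in the same order.

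The Chgb difference was also read within bands, as UMIs per 100 Chga UMIs of the same cells. In cells of 1 to 20% Ghrl it was 5.59 in the untreated library (exact 95% interval 5.26 to 5.93), 5.18 at day 1 (2.98 to 8.43, 3 cells), 19.8 at day 3 with AREG (18.9 to 20.7) and 22.0 at day 3 (20.5 to 23.6). The intervals of both day 3 libraries lay above that of the untreated library. In Hdc-rich cells with little Ghrl, which share no cell with them, it was 4.96, 15.0, 24.1 and 26.5 in the same order. In cells of 40% or more it was 8.63 (6.19 to 11.8), 6.18 (3.03 to 11.3), 14.4 (8.26 to 23.7) and 22.7 (10.2 to 45.8), on 3 to 55 cells a library.

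**Figure D4:**
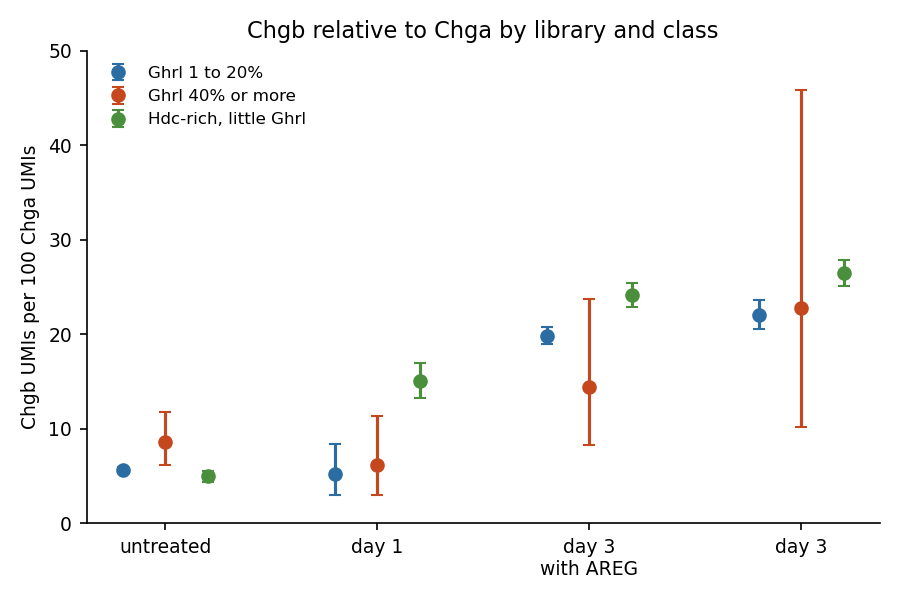
Chgb UMIs per 100 Chga UMIs (linear axis, exact 95% intervals for counting error) by library, in Ghrl-rich cells of 1 to 20% and of 40% or more Ghrl and in Hdc-rich cells with little Ghrl. Both classes with many Chga UMIs stand near 5 in the untreated library and at 19.8 to 26.5 in the day 3 libraries.

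Vgf in cells of 1 to 20% Ghrl was at 65.0 CPM without Ghrl in the untreated library, 1291 on day 1 (9 UMIs), 811 at day 3 with AREG and 522 at day 3. Ptprn was at 55.7, 717, 527 and 343 in the same libraries, and in all 3 L635 libraries both genes were above the untreated level. Vgf had 1 UMI in the 73 cells of 40% or more. Resp18 ran the other way in these cells of 1 to 20%, at 3185, 717, 1359 and 558. All 3 genes moved in the same directions in Hdc-rich cells with little Ghrl. Vgf had 65.2, 1282, 1167 and 2187 CPM over all UMIs there, in the order untreated, day 1, AREG and day 3. Ptprn had 39.1, 586, 749 and 903 in those cells, and Resp18 2698, 1538, 958 and 839. At day 3, 1 cell held 65.8% of the non-Ghrl UMIs of the cells of 5 to 20%. It had 69077 non-Ghrl UMIs, and another cell of that band had 24345. The cells of 1 to 5% had 34785 together at day 3. Chga in these 2 deep cells was at 3.91 and 14.8 per 10000 non-Ghrl UMIs, against a band median of 897 over all libraries. The day 3 levels of Vgf, Ptprn and Resp18 in cells of 1 to 20% thus rest largely on these 2 cells' totals, and their part was not tested.

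Between the day 3 libraries with and without AREG, 225 of 1724 genes were higher with AREG, 13.1%, and 31 lower, 1.80%, with a median over all genes of 0.42. Without the deepest cell of each library 78 were higher and 44 lower, and the median was 0.06. The metallothioneins Mt1 and Mt2 had 1398 and 562 CPM with AREG against 298 and 119 without. Hmgcs1 had 335 against 48.8, from 71 and 9 UMIs, and Spidr, a DNA repair gene, 184 against 835. In cells of 40% or more, Mt1 was at 1291 CPM without Ghrl with AREG against 2013 without, opposite to the pooled difference, on 12 and 3 cells.

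The 7 day 1 cells against the untreated cells had 136 of 2343 genes higher, 5.80%, and 720 lower, 30.7%, with a median of -0.53. With Ghrl, mitochondrial and ribosomal protein UMIs left out of the totals, 503 were higher and 454 lower, and the median was 0.07. Btg3, an antiproliferative gene, had 267 CPM at day 1 against 21.1 in untreated cells, from 14 and 11 UMIs. Vtn had 95.5 against 1819, from 5 and 950 UMIs. Its level differed between bands, at 66.5 CPM without Ghrl in cells of 40% or more and 1865 in those under 20%. Cells of 40% or more were 3 of the 7 at day 1 and 55 of the 256 untreated. Ghrl took 56.7% of the Ghrl-rich cells' UMIs at day 1 and 25.5% in the untreated library. The part of either in the Vtn difference was not tested. Day 3 against untreated gave 81 of 2768 genes higher, 2.93%, and 330 lower, 11.9%, with a median of -0.28. Without the deepest cell of each library 191 were higher and 225 lower, and the median was -0.01. In the full sums Fst stood at 504 CPM at day 3 against 132 in untreated cells, and Resp18 at 477 against 2713. Day 3 against day 1 gave 177 of 775 higher, 22.8%, and 63 lower, 8.13%, with a median of 0.33. With Ghrl, mitochondrial and ribosomal protein UMIs left out of the totals the balance turned, with 70 higher, 247 lower and a median of -0.54. Chgb had 5335 CPM at day 3 against 554 at day 1 over all UMIs. Within the cells of 1 to 5% Ghrl it was at 21820 CPM without Ghrl at day 3 and 2439 at day 1. These levels came from 8 and 3 cells.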

How the data were processed

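UMI counts per gene and barcode were used as deposited by the authors for 4 single-cell libraries. Per the labels, cells were dissociated with TrypLE and captured with the PIPseq T20 3′ kit, 25000 cells loaded. The submitters' processing notes name the build mm39 (GRCm39); for the aligner and counter, the sources used here give no name. Libraries held from 56007532 to 98893436 UMIs over all barcodes. The members and gene lists were chosen with earlier results of these data known, and the Ghrl bands, the cells picked by Hdc and the classes for Chgb, Vgf, Ptprn and Resp18 were added after seeing the data. No doublets were removed.

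Counts of a class were summed per library and tested with edgeR 4.0.16 (R 4.3.3) with library as a block, which pairs the classes because they come from the same library. The test was checked on simulated counts. Drawn over all genes, it missed most changed genes against all other cells; the draw was then limited to genes with at least 20 UMIs in both classes, and there it still missed some. Its power for low genes is limited, so genes not called may still differ. DESeq2 1.42.0 was an alternative. P-values set the difference between classes against how it varied from library to library, and each library was a different condition. Named genes were the 20 highest and 10 lowest fold changes against other cells, and for the other comparisons 10 at either end, at an adjusted p of 0.05 or past the fold, with at least 100 CPM in the higher class and the same direction in every library; between conditions, no cell held over 25% of the higher library's UMIs and at least 20 UMIs were required. Mitochondrial, ribosomal, haemoglobin, immunoglobulin and unnamed genes were left out. Members of the lists are also named. Intervals cover counting error only.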

Additional observations from a re-analysis of the deposited data

Results flagged for a closer look

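Barcodes below the cell limit also held Ghrl-dominated RNA, in data that the comparisons did not use. Of the barcodes with at least 100 but under 500 UMIs, 32 untreated, 3 day 1, 5 AREG and 3 day 3 barcodes had at least 40% of their UMIs in Ghrl. Barcodes under 500 UMIs held 53.9% of all untreated Ghrl UMIs, 24.6% of those at day 1, 58.1% with AREG and 41.1% of those at day 3.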

How the results depend on the processing

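Every gene named by rule from the tests kept its direction under the alternatives run. Of 353 gene values against all other cells, 351 stayed past the threshold, and Sprr1a lost it with DESeq2 and without the day 1 library; 121 of 200 did so against somatostatin cells and 77 of 99 against Hdc-rich cells. Of 478 ratios between conditions none changed sign, and 98 left the counting interval of the main value. The counts moved more. The untreated share was 1.42% with at least 1000 UMIs per cell, 2.27% with a Ghrl limit of 50 per 10000 and 1.46% with 200. With AREG it was 0.658% and 0.302% at those Ghrl limits.

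Against all other cells, thinning each cell to 500 UMIs left 221 genes higher and 447 lower, and DESeq2 called 1083 lower. Leaving out 1 library gave 668 to 1261 higher and 1112 to 2211 lower. Against somatostatin cells, 50 were higher with no filter on low counts, 5 higher and 2 lower after thinning, 4 higher and 2 lower with at least 1000 UMIs, and 4 lower with a Ghrl limit of 200; leaving out 1 library gave 0 to 44 higher and 0 to 26 lower. Against Hdc-rich cells, 54 were higher and 10 lower with no filter, 3 and 0 after thinning, 4 and 0 with a Ghrl limit of 200, and 2 lower with DESeq2, with its size factors in edgeR and with Ghrl and Sst left out of library sizes; leaving out 1 library gave 4 to 15 higher and 0 to 5 lower. With no replicate block for library, 1011 were higher and 1544 lower against all other cells, 3 and 2 against somatostatin cells, and 2 and 0 against Hdc-rich cells.

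Between conditions, genes past the fold are given in the order day 1 against untreated, day 3 against day 1, AREG against day 3, day 3 against untreated and pooled L635 against untreated. With 100 CPM added they were 181, 104, 49, 72 and 32, and with at least 50 UMIs 392, 98, 95, 214 and 108. After thinning, fewer genes could be compared, and the first 4 were 390 of 636, 10 of 19, 31 of 144 and 229 of 678, a larger share of the genes compared than in the full sums. Without the deepest cells AREG against day 3 gave 122 and pooled L635 298, and pooled L635 gave 315 with Ghrl, mitochondrial and ribosomal protein UMIs left out. The causes were not tested. With 1 library a group and 7 cells at day 1, counting error is the only error known for conditions.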
